A study of Homo sapiens with 17 samples.

Results

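CR1 elements are the remains of an old family of LINE retrotransposons, and in the human genome most of them carry the subfamily name L3. Every repeat copy in the deposited table whose annotated family is exactly CR1 was taken, which gave 50238 loci of 3594049 (1.4%) in 22 subfamilies. L3 holds 34046 of these loci, L3b 7310, Plat_L3 2388 and CR1_Mam 1326, and the other 18 subfamilies hold between 5 and 960 each. The libraries come from N2102Ep, an embryonal carcinoma line of human origin from which both LINE-1 proteins were precipitated. RNA bound to LINE-1 ORF1p was sequenced in 4 libraries (ORF1p RIP) and RNA bound to ORF2p in 4 libraries (ORF2p RIP). The controls are 3 mock immunoprecipitations, described as mIgG, and 6 total RNA libraries in a pair of series called b (replicates 1 and 2) and bl (replicates 3 to 6). No genetic change, drug or time course is given for any group. The mock, total RNA and ORF2p RIP labels name N2102Ep clone 2/A6, while the ORF1p RIP labels give the tissue as embryonal. A difference between ORF1p RIP and the other groups therefore cannot be told apart from a difference in cell stock. One cell line stands behind all 17 libraries, and nothing says that replicates are separate cultures, so the p-values measure only the spread between these samples. Of 4 repeat names known from pluripotent cells, HERVH-int, LTR7, LTR7Y and LTR7B, 4 had reads in every library, which by itself does not test the cell type.

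As background, a CR1 element encodes an RNA-binding ORF1 protein and an ORF2 protein with endonuclease and reverse transcriptase activity, as LINE-1 does. CR1 lineages are active in birds and reptiles, but in mammals the family stopped moving long ago, and human copies are short, mutated and mostly truncated at the 5′ end. Many lie in introns, so a read over such a copy can come from the transcript of the host gene. LINE-1 ORF1p coats LINE-1 RNA and ORF2p copies it into DNA, and both are known to favour the RNA that encoded them.

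The age of the family shows in the annotation of the deposited table. CR1 loci diverge from their consensus by a median of 31.5%, against 30.6% for L2, 28.8% for MIR, 21.2% for L1 and 11.6% for Alu. Their median length is 144 bases. Of the 50238 loci, 9194 (18.3%) had no read in any of the 17 libraries, against 17.5% over the whole table. All 22 subfamilies had enough reads to be tested, but only 2521 single loci did (5.02%, against 5.45% of all loci). The tested loci have a median length of 235 bases, and they hold 51.3% of CR1 reads in mock IP, 54.9% in total RNA, 61.6% in ORF1p RIP and 63.7% in ORF2p RIP.

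What such a fossil looks like can be read where a tested CR1 locus lies over the annotated start of a gene. Of 35116 RefSeq start windows (250 bases before the start to 50 after it, 300 in all, on GRCh38.p14), 136 pairs of a window and a CR1 locus were found, with 130 loci, of which 6 were tested. The 3 windows below share at least 140 bases with a tested L3 locus. Windows on chromosomes 8 and 18 were left out of this choice. In ORF1p RIP over mock the loci shown gave a rise, a fall and no call. Capitals mark the bases annotated as L3, and each sequence runs 5′ to 3′ on the strand of the named noncoding gene.
ALMS1-IT1, chr2:73456853-73457152, plus strand: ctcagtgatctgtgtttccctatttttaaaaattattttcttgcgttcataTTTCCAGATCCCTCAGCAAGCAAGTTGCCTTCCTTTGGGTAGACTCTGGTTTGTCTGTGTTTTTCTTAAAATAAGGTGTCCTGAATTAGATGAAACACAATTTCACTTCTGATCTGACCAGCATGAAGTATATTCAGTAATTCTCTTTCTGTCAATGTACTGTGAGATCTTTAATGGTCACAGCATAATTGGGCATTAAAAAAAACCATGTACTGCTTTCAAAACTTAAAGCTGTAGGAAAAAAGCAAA
PARP11-AS1, chr12:3898801-3899100, plus strand: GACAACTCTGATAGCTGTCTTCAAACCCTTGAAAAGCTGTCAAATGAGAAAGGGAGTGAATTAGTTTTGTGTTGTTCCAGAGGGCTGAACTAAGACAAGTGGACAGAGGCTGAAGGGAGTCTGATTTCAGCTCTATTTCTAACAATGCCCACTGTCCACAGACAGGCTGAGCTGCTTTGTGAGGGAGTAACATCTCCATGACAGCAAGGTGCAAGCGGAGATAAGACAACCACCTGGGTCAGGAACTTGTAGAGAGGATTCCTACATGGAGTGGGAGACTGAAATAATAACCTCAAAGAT
LOC124902892, chr12:19278837-19279136, minus strand: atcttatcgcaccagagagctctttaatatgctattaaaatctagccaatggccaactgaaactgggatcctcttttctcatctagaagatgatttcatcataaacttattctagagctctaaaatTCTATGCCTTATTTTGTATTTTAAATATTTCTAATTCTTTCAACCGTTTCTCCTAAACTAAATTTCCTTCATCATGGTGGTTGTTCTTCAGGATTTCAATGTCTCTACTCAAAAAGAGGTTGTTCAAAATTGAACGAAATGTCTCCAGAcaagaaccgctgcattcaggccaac

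The capitals of the ALMS1-IT1 window are 249 bases of an L3 copy 335 bases long, on the other strand, with a divergence of 32.7%. All 300 bases of the PARP11-AS1 window belong to an L3 copy of 477 bases (29.7%) on the same strand. The LOC124902892 window holds the whole of an L3 copy of 149 bases (26.7%). The GC content of the L3 letters is 36.1%, 45.7% and 31.5% in this order, against a median of 58.7% over all windows.

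The locus in the ALMS1-IT1 window, L3 at chr2:73456904-73457238, gave 7.68, 7.35, 20.8 and 5.13 CPM in the 4 ORF1p RIP libraries. CPM are counts scaled to the TMM-corrected total of repeat reads in each library. It gave 1.92, 3.07, 1.26 and 3.41 CPM in ORF2p RIP and 0.793, 0.85 and 0.676 in mock IP. Every ORF1p RIP library was above every ORF2p RIP and mock library, and the fitted log2 change over mock was 3.70 for ORF1p (adjusted p = 2.13e-05) and 1.64 for ORF2p (adjusted p = 0.0445). The ORF2p call ended without any one of the mock libraries or without ORF2p RIP replicate 1, 2 or 4, with adjusted p up to 0.126. The PARP11-AS1 locus had no read in any ORF1p RIP library, while mock IP gave 1.77, 2.64 and 2.38 CPM. ORF1p RIP was thus at least 24.4-fold lower than mock (adjusted p = 3.35e-06), the bound being set by a floor of 3 reads over the group. ORF2p RIP gave 1.49, 0.747, 1.46 and 0.48 CPM at this locus, and its difference from mock did not pass the test (adjusted p = 0.134). The LOC124902892 locus passed in neither RIP against mock (adjusted p = 0.106 and 0.92). Against total RNA it was lower in ORF1p RIP (log2 -1.32, adjusted p = 0.0371), a call that ended without ORF1p RIP replicate 1, 3 or 4 or total RNA replicate 5 (adjusted p up to 0.102).

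Some libraries stood apart. ORF1p RIP replicate 3 had reads on 17.5% of CR1 loci, against 27.6 to 29.3% in the other ORF1p RIP libraries. Without it the ORF1p RIP change over mock, given with all libraries further on, was 3.85 for X5B_LINE, 1.07 for X7B_LINE, 0.89 for CR1_Mam and 0.35 for L3 on the log2 scale. The total RNA series b and bl also differed from each other, and the main values against total RNA are given by series further on.

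CR1 reads made up about 1% of the reads on repeats in every group. The share was 1.22, 1.25, 1.02 and 1.23% in ORF1p RIP, 0.796, 0.841, 0.882 and 0.854% in ORF2p RIP, and 0.91, 0.978 and 0.947% in mock IP. In total RNA the lowest share was 1.01%, the highest 1.18%. All ORF1p RIP libraries lay above all mock libraries and all ORF2p RIP libraries lay below all mock libraries. Of LINE reads alone, CR1 made up 2.93, 2.9, 1.96 and 2.9% in ORF1p RIP and 2.58, 2.58 and 2.64% in mock. These groups overlapped on that base, while ORF2p RIP stayed below mock at 1.49, 1.46, 1.55 and 1.57%. The mean shares of repeat reads were 1.18% ± 0.109 (SD, n = 4), 0.843% ± 0.0358 (n = 4), 0.945% ± 0.0339 (n = 3) and 1.1% ± 0.0678 (n = 6). An exact two-sided permutation test gave p = 0.0571 for each RIP against mock, the smallest p that 4 against 3 libraries allow. ORF2p RIP fell below ORF1p RIP (exact p = 0.0286) and below total RNA (exact p = 0.00952), also the smallest possible, but over the 12 share and ratio tests no adjusted p was under 0.098. HERVH-int and its LTR7 names took 3.57 to 5.67% of repeat reads in ORF1p RIP, 6.11 to 7.22% in ORF2p RIP, 19.4 to 21.3% in mock IP and 8.43 to 13.7% in total RNA, and their part in the CR1 shares was not tested. In bulk libraries fewer cells with a transcript and less transcript per cell cannot be told apart.

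Set against L2, the other abundant old LINE family, the ratio of CR1 reads was higher in both RIPs than in mock. L2 itself took 8.17, 8.2, 7.17 and 8.26% of repeat reads in ORF1p RIP and 5.7, 5.89, 6.17 and 6.02% in ORF2p RIP. Mock IP gave 8.06, 8.27 and 8.19%. In ORF2p RIP the shares of CR1 and L2 were thus both below mock, with L2 falling further. There were 14.9, 15.2, 14.2 and 14.9 CR1 reads per 100 L2 reads in ORF1p RIP, 14, 14.3, 14.3 and 14.2 in ORF2p RIP, and 11.3, 11.8 and 11.6 in mock IP. The mock libraries lay below all RIP libraries. The mean log2 ratio exceeded mock by 0.359 in ORF1p RIP and by 0.294 in ORF2p RIP (exact permutation p = 0.0571 each, adjusted p = 0.098). Total RNA did not hold together on this measure: series b gave 11.5 and 12.2 and series bl gave 14 to 15.2. ORF2p RIP and ORF1p RIP overlapped, with a difference of -0.0651 (exact p = 0.0857, adjusted p = 0.114), which turned to 0.0361 once the leading locus of every subfamily was left out.

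**Figure D1:**
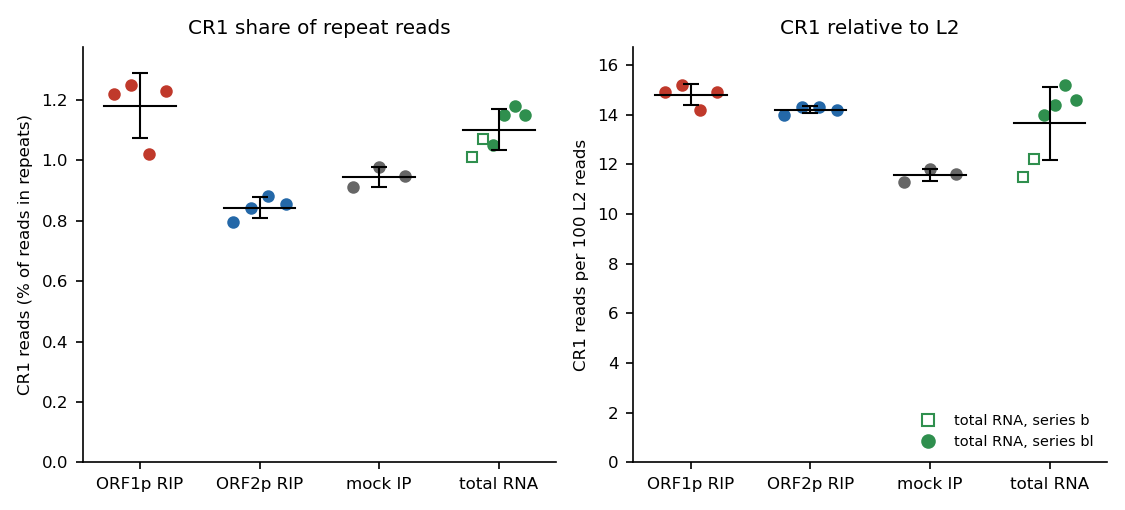
CR1 share of repeat reads in percent (left) and CR1 reads per 100 L2 reads (right), with 1 point per library, open squares for total RNA series b, and bars for the group mean ± SD. ORF1p RIP replicate 3 sits at 1.02% below the other ORF1p RIP libraries, and on the right the 3 mock libraries and the series b pair lie below the others.

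Most CR1 reads fell on L3 and L3b. L3 took 72.3% of CR1 reads over the 17 libraries, L3b 11.8%, Plat_L3 4.03% and CR1_Mam 3.57%. Per kilobase of annotated sequence, L3 stood at 1.21 CPM in ORF1p RIP, 1.01 in ORF2p RIP, 0.941 in mock and 1.02 in total RNA. CR1_Mam stood at 2.13, 1.02, 1.08 and 1.26 CPM per kilobase and X7B_LINE at 2.31, 1.15, 1.07 and 1.25. X6A_LINE reached 2.07 and X6B_LINE 2.11 CPM per kilobase in ORF1p RIP, against 1.05 and 1.13 in mock. X5B_LINE stood at 33.8 CPM per kilobase in ORF1p RIP and 1.91 in mock. In ORF1p RIP the levels per length of CR1_Mam, X7B_LINE, X6A_LINE, X6B_LINE and X5B_LINE thus lay above that of L3, while in mock L3 and all of these except X5B_LINE lay between 0.941 and 1.13.

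Reads were unevenly spread over copies. Of the CR1 reads, 50% came from the 888 highest loci in ORF1p RIP, 792 in ORF2p RIP, 1856 in mock and 1618 in total RNA. The leading 10 loci held 6.77% of CR1 reads in ORF1p RIP and 11.4% in ORF2p RIP, against 3.1% in mock and 4.03% in total RNA. In 2 subfamilies a single locus held over 50% of all reads: 86.4% of X5B_LINE reads and 73.2% of the few CR1-8_Crp reads. The largest L3 locus held 0.752% of L3 reads.

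**Figure D2:**
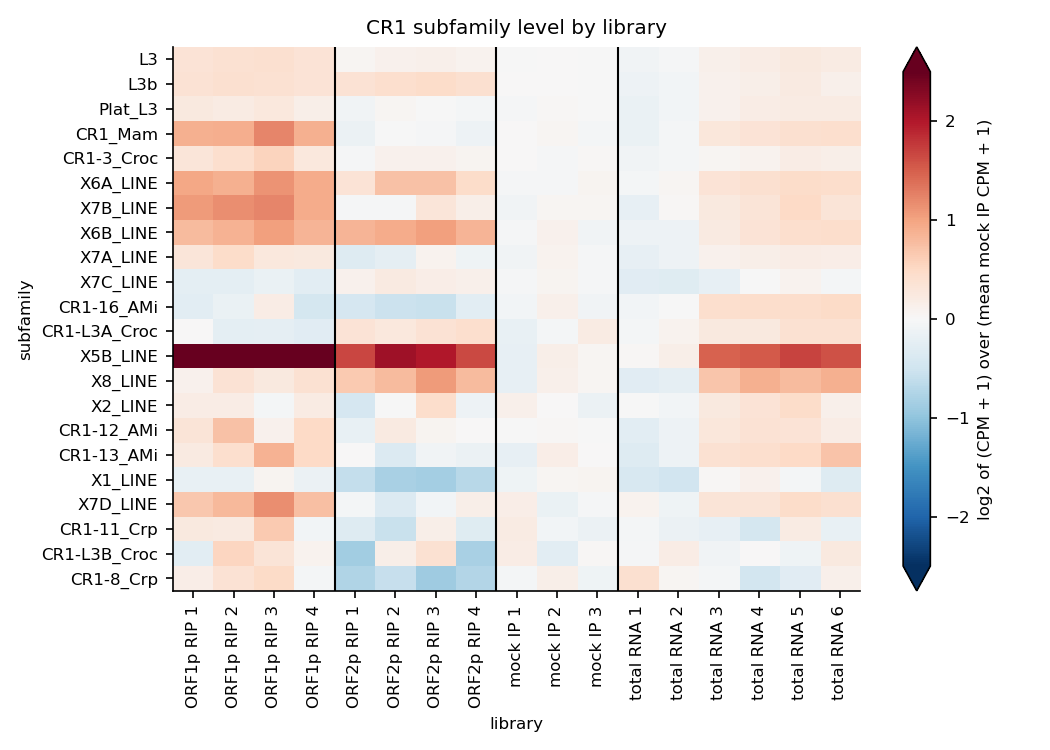
Heat map of the 22 CR1 subfamilies (rows) in the 17 libraries (columns), coloured by log2 of (CPM + 1) over (mean mock CPM + 1). X5B_LINE is high in all ORF1p RIP libraries and lower but still raised in ORF2p RIP, and CR1_Mam and X7B_LINE are raised in the ORF1p RIP columns.

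Against mock IP, 3 of 22 CR1 subfamilies were higher in ORF1p RIP and none was lower at an adjusted p under 0.05 and at least 2-fold, where 7.33% of all 1078 subfamilies tested were called higher and 8.72% lower. X5B_LINE changed most, with 76.8, 96.4, 174 and 102 CPM in ORF1p RIP and 5.37, 7.11 and 6.61 in mock (log2 4.14 ± 0.46 SE, adjusted p = 2.02e-06, edgeR quasi-likelihood test). X7B_LINE gave 182, 196, 202 and 166 CPM against 81, 89.3 and 89.4 (log2 1.11 ± 0.14, adjusted p = 7.23e-06). X7D_LINE, at 3.31, 3.74, 4.99 and 3.53 CPM, was also above its mock values of 2.01, 1.4 and 1.65 (log2 1.19 ± 0.25, adjusted p = 0.000856). All ORF1p RIP values of these 3 subfamilies lay above all mock values.

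More subfamilies passed on p alone, 11 higher and 1 lower, beside 26% and 25.5% of all subfamilies. CR1_Mam rose from 300, 308 and 289 CPM in mock to 553, 562, 695 and 553 (log2 0.98 ± 0.13, adjusted p = 1.29e-05), just under 2-fold. X6A_LINE (log2 0.99, adjusted p = 1.23e-05) and X6B_LINE (log2 0.90, adjusted p = 3.95e-05) rose by about the same. The bulk of the family moved less. L3 gave 8464, 8613, 8808 and 8398 CPM against 6621, 6716 and 6616 (log2 0.37 ± 0.09, adjusted p = 0.00276), and L3b gave 1344, 1378, 1363 and 1322 against 1053, 1052 and 1039 (log2 0.37 ± 0.08, adjusted p = 0.00122). Plat_L3 gave 458, 448, 463 and 427 CPM against 380, 397 and 385 and did not pass (log2 0.21 ± 0.09, adjusted p = 0.0525). X7C_LINE was the one subfamily that fell (log2 -0.24, adjusted p = 0.0448). The median log2 change over the 22 subfamilies was 0.37, against 0.02 over all 1078, and with library totals in place of TMM it was 0.28.

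Single loci carried part of this. Without the leading locus of each subfamily the CR1 median went from 0.37 to 0.23. X5B_LINE then stood at 0.11 (adjusted p = 0.774) and X7D_LINE at 0.02 (adjusted p = 0.976), and both calls ended. X7B_LINE stayed past the p threshold at 0.72 (adjusted p = 0.000784) but under 2-fold, and CR1_Mam went from 0.98 to 0.44 (adjusted p = 0.0166). Another X7B_LINE locus, on chromosome 3, was still counted and held 20.9% of X7B_LINE reads in ORF1p RIP and 0.15% in mock. The 0.72 is therefore not free of single loci. L3 and L3b then stood at 0.34 and 0.31 (adjusted p = 0.0117 and 0.014). Their leading loci, picked by reads over the 17 libraries, held 0.00578% and 2% of their ORF1p RIP reads and 0.436% and 0.353% in mock. Leaving out so small a part cannot tell whether other single loci carry the L3 and L3b changes. CR1-8_Crp and CR1-13_AMi, at 0.40 and 0.56 with all loci, were then called higher at 3.16 (adjusted p = 0.0016) and 1.09 (adjusted p = 0.00199). The CR1-8_Crp value rests on few reads, since this subfamily had 257 reads over the 17 libraries. Its leading locus held 93% of its mock reads. The leading locus of CR1-13_AMi held 32.4% of that subfamily's mock reads and had no read in ORF1p RIP. Leaving it out thus lowers only the mock side. The number of calls rested also on ORF1p RIP replicates 2 and 4, since leaving out either gave 5.

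**Figure D3:**
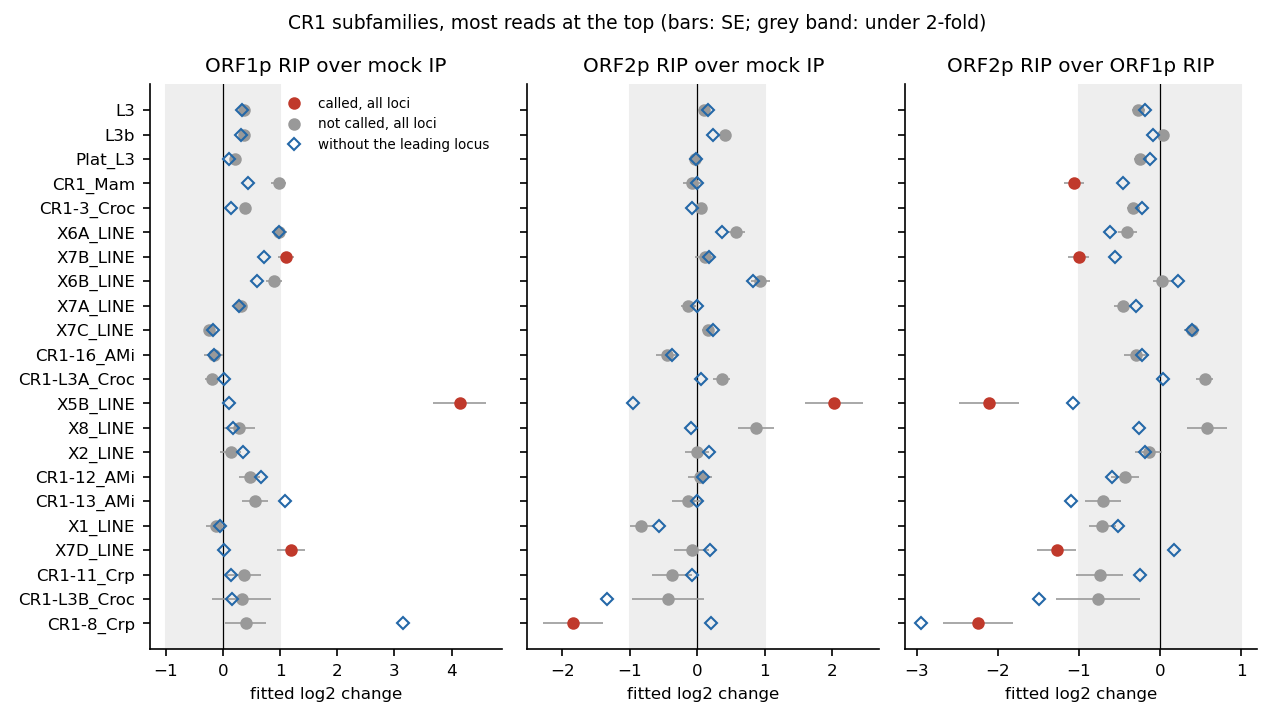
Fitted log2 change of each of the 22 CR1 subfamilies, with SE bars, in ORF1p RIP over mock, ORF2p RIP over mock and ORF2p RIP over ORF1p RIP. Red points were called, grey ones were not, the grey band marks changes under 2-fold, and blue open diamonds show the value without the leading locus, which for X5B_LINE falls from 4.14 to 0.11 in the first panel.

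ORF2p RIP differed less from mock. There 1 subfamily was higher, X5B_LINE, and 1 lower, CR1-8_Crp, beside 6.68% higher and 1.48% lower over all subfamilies. X5B_LINE gave 22.4, 31, 28.6 and 22.2 CPM against 5.37, 7.11 and 6.61 (log2 2.03 ± 0.43, adjusted p = 0.00205). CR1-8_Crp, which has 5 loci, gave 0.319, 0.492, 0.209 and 0.343 CPM against 1.16, 1.46 and 1.05 (log2 -1.84 ± 0.44, adjusted p = 0.00456). The ORF2p RIP values of both lay wholly outside the mock range. Without their leading loci both changed sign, to -0.95 (adjusted p = 0.0364) and 0.21 (adjusted p = 0.905).

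On p alone, 6 subfamilies were higher and 3 lower, beside 16.9% and 15.5% over all. X6B_LINE rose to 144, 152, 163 and 143 CPM from 77.4, 85.8 and 74.3 (log2 0.93, adjusted p = 0.000104). L3b rose to 1342, 1395, 1450 and 1387 CPM (log2 0.41 ± 0.08, adjusted p = 0.00118), but without its leading locus this was 0.24 (adjusted p = 0.0845) and with library totals 0.10. X8_LINE rose by 0.87 (adjusted p = 0.0219) and stood at -0.09 without its leading locus. L3 itself gave 6925, 7154, 7278 and 7103 CPM, above every mock library, yet did not pass (log2 0.10 ± 0.09, adjusted p = 0.429), and with library totals the value was -0.21. CR1_Mam gave 269, 297, 293 and 275 CPM (log2 -0.08, adjusted p = 0.69). The median over the 22 was 0.02, against -0.03 over all subfamilies. With library totals the median of all subfamilies in this comparison was -0.34 in place of -0.03, and 6 CR1 subfamilies changed sign.

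In the direct comparison of the RIPs, 5 of 22 CR1 subfamilies were lower in ORF2p RIP and none was higher, beside 12.3% higher and 6.59% lower over all subfamilies. These were CR1-8_Crp (log2 -2.24 ± 0.43, adjusted p = 0.000342), X5B_LINE (-2.11 ± 0.37, adjusted p = 0.000151), X7D_LINE (-1.27 ± 0.24, adjusted p = 0.000334), CR1_Mam (-1.06 ± 0.12, adjusted p = 1.75e-06) and X7B_LINE (-1.0 ± 0.13, adjusted p = 6.11e-06). Without ORF1p RIP replicate 3 the count was 3, as CR1_Mam (-0.97) and X7B_LINE (-0.96) slipped under 2-fold while staying past the p threshold. Without the leading loci CR1_Mam stood at -0.45 (adjusted p = 0.00839), X7B_LINE at -0.55 (adjusted p = 0.00274) and X7D_LINE at 0.17 (adjusted p = 0.733). The chromosome 3 locus of X7B_LINE was still counted, with 20.9% of X7B_LINE reads in ORF1p RIP and 0.384% in ORF2p RIP. X5B_LINE (-1.07, adjusted p = 0.00844) and CR1-8_Crp (-2.95, adjusted p = 0.00234) were still called, and CR1-13_AMi (-1.10, adjusted p = 0.00098) and CR1-L3B_Croc (-1.49, adjusted p = 0.0355) were then called too. CR1-8_Crp and CR1-L3B_Croc had few reads, 257 and 277 over the 17 libraries with all loci counted. Their leading loci held 71.4% and 52.3% of their ORF2p RIP reads. The leading locus of CR1-13_AMi held 29.3% of that subfamily's ORF2p RIP reads and had no read in ORF1p RIP. On p alone 2 subfamilies were higher and 14 lower, beside 27.9% and 28.2%. L3 was lower in ORF2p RIP (-0.27 ± 0.08, adjusted p = 0.0115), whereas L3b differed by 0.04 (adjusted p = 0.631), and by -0.18 with library totals. CR1-L3A_Croc (0.55, adjusted p = 0.000708) and X7C_LINE (0.39, adjusted p = 0.00115) were the subfamilies higher in ORF2p RIP.

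Against total RNA, X5B_LINE alone was called higher in ORF1p RIP (log2 2.80 ± 0.33, adjusted p = 2.25e-06), beside 9.09% higher and 8.26% lower over all subfamilies. The 2 total RNA series gave different sizes for it, 3.95 against series b and 2.38 against series bl. X7B_LINE (0.89), X7D_LINE (0.80), CR1_Mam (0.76) and L3 (0.25, adjusted p = 0.00824) were among the 10 that were higher on p alone, with 2 lower, beside 29.1% and 28.4%. CR1-8_Crp alone was called lower in ORF2p RIP (-1.82 ± 0.39, adjusted p = 0.00198), beside 5.1% higher and 1.3% lower. On p alone 4 were higher and 4 lower, beside 18% and 20.5%. L3 differed by -0.01 there (adjusted p = 0.895). Without leading loci X5B_LINE stood at 0.12 in ORF1p RIP (adjusted p = 0.71) and CR1-8_Crp at -1.52 in ORF2p RIP (adjusted p = 0.125).

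The total RNA series gave different sizes. In ORF1p RIP, X7B_LINE was higher by 1.13 against series b and 0.73 against series bl, X7D_LINE by 1.11 and 0.60, CR1_Mam by 1.01 and 0.59, and L3 by 0.36 and 0.15 on the log2 scale. Against series b alone X5B_LINE, X7B_LINE, X7D_LINE and CR1_Mam were therefore called, 4 in place of 1. In ORF2p RIP, 4 were also called against series b alone. These were CR1-8_Crp at -2.26 (-1.47 against series bl), X5B_LINE at 1.91 (adjusted p = 4.9e-05, with 0.34 and adjusted p = 0.135 against series bl), X6B_LINE at 1.04 and X8_LINE at 1.12. L3 differed there by 0.14 and -0.06 and CR1_Mam by 0.01 and -0.41. The RIP comparisons share their controls, so their values are not independent of each other.

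Mock IP and total RNA gave no call among the 22 subfamilies by edgeR, beside 0.742% higher and 0% lower over all subfamilies. On p alone there was none either, beside 1.76% and 0.649%. There were 3 CR1 subfamilies at an unadjusted p under 0.05, and DESeq2 called 1. L3 differed by -0.11 (adjusted p = 0.327) and CR1_Mam by -0.22 (adjusted p = 0.203). X5B_LINE had the largest difference, -1.34 (adjusted p = 0.0812), and its total RNA levels split by series: 6.56 and 7.1 CPM in series b, 19.4, 20.4, 22.9 and 21.2 in series bl. Against series bl alone mock was lower for X5B_LINE (-1.70, adjusted p = 7.78e-06), CR1_Mam (-0.35, adjusted p = 0.000143) and L3 (-0.17, adjusted p = 0.0077), while against series b alone the values were -0.13, 0.07 and 0.04 and none of the 3 passed.

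The X5B_LINE signal came from 1 locus of 69 bases, chr12:79592550-79592618 on the minus strand, in the span of PAWR and in its sense orientation. PAWR encodes a pro-apoptotic protein also known as PAR-4. The locus gave 71.8, 91.5, 169 and 97.5 CPM in ORF1p RIP, 20.7, 29.9, 24.5 and 20.7 in ORF2p RIP, and 2.14, 2.06 and 2.1 in mock. In total RNA it gave 3.01 and 3.55 CPM in series b and between 14.9 and 18.5 in series bl. No groups of the immunoprecipitations overlapped. The log2 change over mock was 5.67 ± 0.63 in ORF1p RIP (adjusted p = 7.43e-08) and 3.5 ± 0.57 in ORF2p RIP (adjusted p = 7.91e-05). ORF2p RIP was below ORF1p RIP by 2.17 ± 0.47 on the log2 scale (log2 -2.17, adjusted p = 0.000296). The locus held 95.6% of X5B_LINE reads in ORF1p RIP, 91.9% in ORF2p RIP, 72.7% in total RNA and 33.1% in mock. The other X5B_LINE loci together did not pass against mock in ORF1p RIP, as given above, and with 1 library left out in turn the change at the PAWR locus was 5.36 to 5.82. Against total RNA, ORF1p RIP was higher (3.16 ± 0.42, adjusted p = 5.41e-07), ORF2p RIP did not pass (0.99, adjusted p = 0.0558) and mock was lower (-2.51, adjusted p = 0.0118). That last call ended without any one of the mock libraries (adjusted p up to 0.0885) and against series b alone (-0.67, adjusted p = 0.393).

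A second concentration lay on chromosome 3, just beyond the annotated end of NECTIN3, a cell adhesion gene. Here 3 loci of 3 subfamilies, outside every annotated gene span, rose together in ORF1p RIP. The CR1_Mam locus at chr3:111199978-111200362 gave 158, 158, 234 and 160 CPM in ORF1p RIP, between 1.15 and 1.99 in ORF2p RIP, and 2.12, 0.243 and 0.676 in mock (log2 7.42 ± 0.64, adjusted p = 1.64e-09). The X7B_LINE locus at chr3:111199802-111199854 gave 40.8, 40.7, 36.1 and 36.4 CPM against at most 0.183 in mock (8.11 ± 0.58, adjusted p = 1.02e-10). The L3b locus at chr3:111195288-111195415 gave 33, 29.4, 45.1 and 33.8 CPM against at most 0.376 (7.27 ± 0.57, adjusted p = 3.83e-10). None of the 3 passed in ORF2p RIP over mock (adjusted p = 0.337, 0.088 and 0.352). They lie close together and are not independent measurements. The CR1_Mam locus made up 29.7% of CR1_Mam reads in ORF1p RIP and 0.345% in mock.

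The leading loci of some other subfamilies rose in 1 or both RIPs. For X7B_LINE it was chrX:92272880-92273038 in PCDH11X, a protocadherin gene, with 31.5, 43.8, 63.4 and 26.6 CPM in ORF1p RIP against 0.255, 0.151 and 0.376 in mock (7.36 ± 0.64, adjusted p = 1.89e-09). X7D_LINE was led by a locus in RBMS1 at 2.88, 2.24, 2.25 and 2.51 CPM in ORF1p RIP against 0.366, 0.364 and 0.451 (2.63 ± 0.71, adjusted p = 0.00273). X8_LINE was led in ORF2p RIP by chr4:155344039-155344184 in MAP9, a microtubule-associated protein gene, at 16.7, 18.4, 19.9 and 15.5 CPM against 0.61, 0.304 and 0.601 (5.11 ± 0.52, adjusted p = 3.49e-07). That locus held 51.9% of X8_LINE reads in ORF2p RIP and 2.73% in mock. X6B_LINE was led by a 52-base locus in DDX50, an RNA helicase gene, which rose in both RIPs (3.23 and 2.83, adjusted p = 1.66e-06 and 4.58e-05). The CR1-3_Croc locus in TTC17 (1.70 and 1.36) and the Plat_L3 locus at ZRANB2 (1.62 and 1.19) also rose in both RIPs, but the Plat_L3 call in ORF2p RIP (adjusted p = 0.0438) ended without any one of the mock libraries or without ORF2p RIP replicate 2, 3 or 4 (adjusted p up to 0.13).

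Others fell or were not called. The leading loci of X2_LINE in PTCHD1-AS (-5.57), X7C_LINE outside gene spans (-4.88) and CR1-16_AMi in LINC01950 (-3.62) fell in ORF1p RIP, and that of CR1-13_AMi in LINC02476 had no read there, at least 43.2-fold below mock. None of these 4 passed in ORF2p RIP over mock (adjusted p = 0.267, 0.838, 0.635 and 0.703). The X7A_LINE locus in ENAH did not pass in ORF1p RIP (0.44, adjusted p = 0.292) and fell in ORF2p RIP (-1.20, adjusted p = 0.0157), a call that ended without mock replicate 2 (adjusted p = 0.0949). The CR1-12_AMi locus in TTLL5 and the X1_LINE locus in TCF4 passed in neither RIP over mock (adjusted p = 0.17 and 0.537 in ORF1p RIP, 0.88 and 0.0807 in ORF2p RIP).

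Among single loci, ORF1p RIP over mock had 875 higher and 741 lower of the 2521 CR1 loci tested (34.7% and 29.4%), beside 28.9% and 31.1% of all 195825 loci. ORF2p RIP over mock had 270 higher and 247 lower (10.7% and 9.8%), beside 14.2% and 11.5%. ORF2p RIP over ORF1p RIP had 739 higher and 890 lower, beside 33.6% and 30.1%. Against total RNA, ORF1p RIP had 902 higher and 840 lower (background 32.7% and 32.9%), and ORF2p RIP had 349 higher and 492 lower (19.3% and 18.4%). Mock IP over total RNA had 38 higher and 22 lower (2.5% and 0.532%). CR1 thus had many calls in both directions at shares near the background, the furthest apart being 34.7% against 28.9%. The last count depended on single libraries and ranged from 6 without mock replicate 1 to 247 without total RNA replicate 1. ORF2p RIP over mock ranged from 355 to 569 calls with 1 library left out.

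The most similar families gave the following shares. In ORF1p RIP over mock, L2 had 26.2% of its tested loci higher and 32% lower, MIR 32.1% and 31.6%, RTE-X 32% and 28.3%, and RTE-BovB 44.3% and 26.2%. In ORF2p RIP over mock, L2 had 6.08% higher and 19.1% lower, whereas MIR (10.5% and 10.2%) and RTE-X (10.5% and 8.12%) lay near CR1. The median log2 change of tested loci in ORF2p RIP over mock was -0.19 for CR1, -0.63 for L2 and -0.18 over all loci. The test of the difference between CR1 and L2 is the read ratio given above.

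The loci with the highest levels were mostly L3 copies, and they included loci highest in ORF2p RIP, loci highest in ORF1p RIP, and loci nearly absent from ORF1p RIP. The highest was an L3b locus, chr1:121389712-121389858, in SRGAP2C and SRGAP2-AS1. SRGAP2C is a human-specific copy of the neuronal gene SRGAP2, and since near-identical copies exist, how reads were shared among them is uncertain. It gave 227, 223, 211 and 233 CPM in ORF2p RIP, 24.1, 25.4, 36.1 and 25 in ORF1p RIP, and 2.12, 3.83 and 5.5 in mock. Both RIPs were above mock in every library, ORF2p RIP by 5.87 ± 0.42 on the log2 scale (adjusted p = 9.69e-09) and ORF1p RIP by 2.86 ± 0.36 (adjusted p = 5.04e-07).

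The L3 locus chr8:75224132-75224554 in the long noncoding RNA gene CASC9 gave 204, 183, 192 and 198 CPM in ORF2p RIP, 23.7, 20.5, 39.6 and 23.3 in ORF1p RIP, and 7.23, 6.52 and 6.86 in mock. It rose over mock by 4.82 ± 0.51 in ORF2p RIP (adjusted p = 5.52e-07) and by 1.96 ± 0.45 in ORF1p RIP (adjusted p = 0.000602). LINC-ROR, a long noncoding RNA known from pluripotent cells, holds the L3 locus chr18:57055670-57055954. It gave 266, 145, 136 and 234 CPM in ORF2p RIP and 14.2, 12.9 and 15.1 in mock, but 0.747, 0.249, 0.483 and 2.74 in ORF1p RIP. ORF2p RIP was thus higher than mock (3.80 ± 0.50, adjusted p = 8.04e-06) and ORF1p RIP lower (-3.69 ± 0.49, adjusted p = 1.08e-06).

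A pair of neighbours in PDE3A, a cyclic nucleotide phosphodiesterase gene, moved in the same directions against mock. The L3 locus chr12:20569535-20569916 gave 87.7, 91.3, 71.6 and 99.4 CPM in ORF2p RIP, 25.1, 28.3 and 34.9 in mock, and 0.213, 0.498, 0.161 and 1.03 in ORF1p RIP. Right beside it, the leading CR1-L3A_Croc locus chr12:20569924-20570003 gave 18.8, 14.3, 13.2 and 18.7 CPM in ORF2p RIP and at most 0.114 in ORF1p RIP. Both passed in each RIP against mock, with log2 changes of 1.57 and 1.5 in ORF2p RIP and -5.89 and -6.34 in ORF1p RIP. The ORF2p RIP call of the L3 locus (adjusted p = 0.0131) ended without mock replicate 1 or 2 (adjusted p = 0.0662 and 0.0542). Against total RNA, ORF2p RIP was higher at the LINC-ROR locus (4.14, adjusted p = 1.4e-08). At the PDE3A pair that comparison did not pass (0.26 and 0.30, adjusted p = 0.605 and 0.467). The L3 locus of PDE3A was also split by total RNA series, from 28.6 CPM in series b to 109 in series bl. Intergenic L3 loci at chrX:23463885-23464850 and chr3:176299721-176299896 were likewise low in ORF1p RIP (-5.21 and -5.10, adjusted p = 2.12e-10 and 1.4e-08) and did not pass in ORF2p RIP (adjusted p = 0.447 and 0.0591).

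Other high loci rose in ORF1p RIP. The L3 locus chr1:51918371-51918613, antisense within RAB3B, a vesicle-trafficking GTPase gene, rose in both, with 53.2, 39.3, 58.9 and 51.1 CPM in ORF1p RIP and 84.5, 74, 90.7 and 89.3 in ORF2p RIP against 5.15, 4.62 and 3.91 in mock. Its log2 changes were 3.47 ± 0.34 and 4.21 ± 0.35. The L3 locus chr7:27098923-27099002 in HOTAIRM1, a noncoding RNA of the HOXA cluster, gave 87.8, 94.4, 34.9 and 56.9 CPM in ORF1p RIP and at most 0.246 in ORF2p RIP (7.05 ± 0.79 over mock, adjusted p = 9.64e-08). In LPP, a focal adhesion protein gene, an L3 locus gave 17.2, 17.1, 22.3 and 13.8 CPM in ORF1p RIP and at most 0.366 in mock (6.02 ± 0.63, adjusted p = 3.37e-08).

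**Figure D4:**
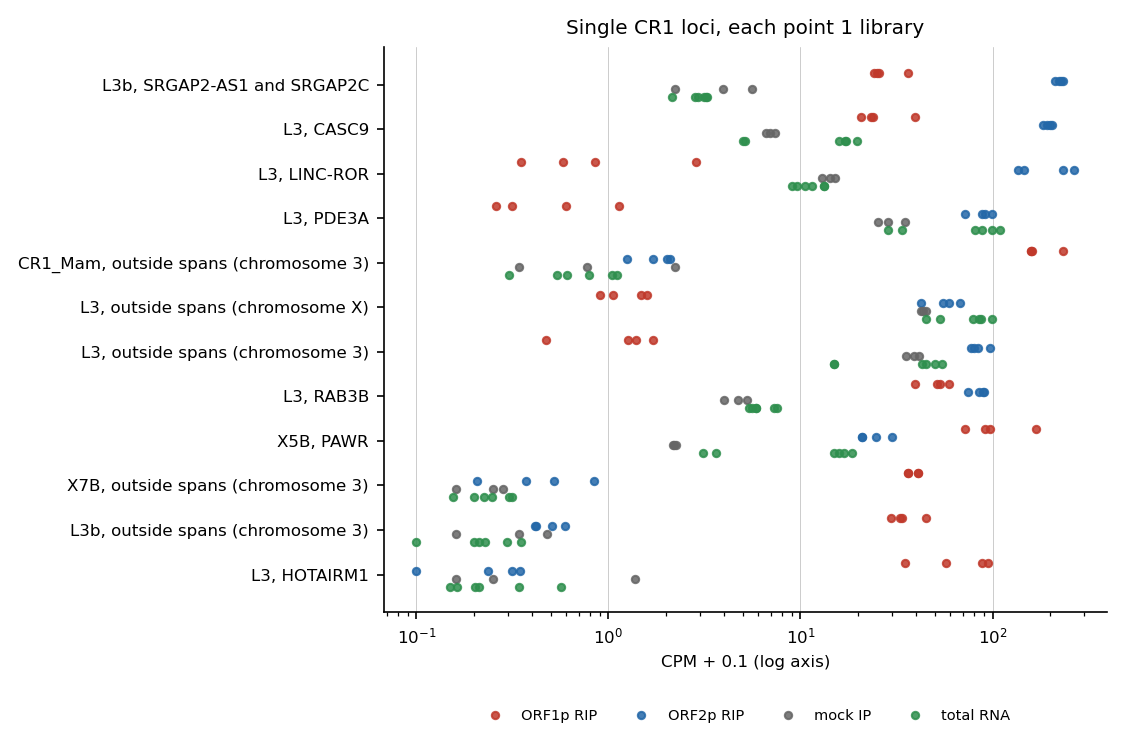
CPM (with 0.1 added, log axis) of 12 CR1 loci, with 1 point per library and a colour per group: 9 of the 10 highest loci and 3 further ones. The SRGAP2C, CASC9 and LINC-ROR loci are highest in ORF2p RIP, the CR1_Mam, X7B_LINE and L3b loci of chromosome 3, PAWR and HOTAIRM1 in ORF1p RIP, and the LINC-ROR and PDE3A loci are lower in ORF1p RIP than in mock.

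Some loci had no reads at all in ORF1p RIP. Of the 2521 tested CR1 loci, 245 (9.72%) had no read in any ORF1p RIP library, beside 9.16% of all tested loci. Of these 245, 224 had reads in all 13 other libraries, beside 15999 of 17944 over all tested loci. A tested locus at 0 in ORF1p RIP passed the count filter through the other groups. Reads in other groups are thus in part set by that filter. There were 51 loci (2.02%, beside 1.35% of all) with no read in ORF2p RIP, 10 in mock (0.397%, beside 0.31%) and 7 in total RNA (0.278%, beside 0.209%). ORF1p RIP also had the lowest depth, 7693841 to 9125527 reads on repeats against 9795032 to 17056092 in ORF2p RIP, 12703395 to 16271143 in mock and 8937441 to 19670774 in total RNA. At the L3 locus chr6:90681669-90681814 mock gave 12.7, 18.5 and 14.9 CPM and ORF1p RIP had no read, a level at least 166-fold lower. An intergenic L3 locus on chromosome 13 (at least 152-fold) and one in BCL2L14 on chromosome 12 (at least 162-fold) were at 0 in ORF1p RIP in the same way. Against ORF2p RIP, the L3b locus chr2:178668169-178668446 in the span of TTN, the gene of the muscle protein titin, had 9.85, 14.1, 12.7 and 11.9 CPM and no read in ORF1p RIP, at least 130-fold. The calcium channel gene RYR3 held an X7C_LINE locus of the same kind (at least 76-fold).

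Loci at 0 in ORF2p RIP were seen too. L3 loci in LOC124900404, LOC105371703 and ADGRL3, a latrophilin receptor gene, and an L3b locus in NNT, a mitochondrial transhydrogenase gene, had no read in ORF2p RIP. ORF1p RIP was higher there by at least 146-, 151-, 78.8- and 77.6-fold. These loci had 341, 353, 184 and 181 reads in ORF1p RIP, 9, 5, 14 and 8 in mock, and 13, 1, 21 and 11 in total RNA. They passed the count filter only through ORF1p RIP, so the filter itself selects for such a difference. Among loci with at least 5 CPM in ORF2p RIP or mock and no overlap, the largest falls of ORF2p RIP below mock were L3 loci in PTPRG (-2.60), AK4 (-2.46), BCL2L14 (-2.42) and MIR924HG (-1.98). Its largest rises, besides SRGAP2C and MAP9, were intergenic L3 loci on chromosomes X (5.36 ± 0.68, adjusted p = 4.92e-06) and 5 (5.13 ± 0.65, adjusted p = 4.39e-06). An L3 locus of 75 bases in PRR11 gave 50.3, 53.4, 58.5 and 52 CPM in ORF2p RIP against 1.38, 1.54 and 2.09 in mock (5.0 ± 0.51, adjusted p = 3.24e-07). Mock IP itself differed from total RNA at some loci, most at an L3b locus in SRRM2, a splicing speckle gene, with 21.6, 11 and 20.8 CPM (4.12 ± 0.70, adjusted p = 0.00407).

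Where the loci lie differed between the groups. In ORF1p RIP, 83.3 to 84.6% of CR1 reads lay in spans of protein-coding genes, against 67.1 to 67.6% in ORF2p RIP, 70.1 to 71.5% in mock, 71.4 to 71.7% in total RNA series b and 65.3 to 66.1% in series bl. In spans of long noncoding genes only, ORF1p RIP had 5.94 to 6.47%, ORF2p RIP 14.1 to 15.2% and mock 10.6 to 11.4%. The 3 kinds of immunoprecipitation did not overlap on either measure. The protein-coding share in ORF1p RIP exceeded mock by 13.4 percentage points (exact permutation p = 0.0571, the smallest possible, adjusted p = 0.0914 over 24 tests), and the ORF2p RIP share was lower than mock by 3.28 points (difference -3.28, same p). These tests were chosen after the data were seen.

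**Figure D5:**
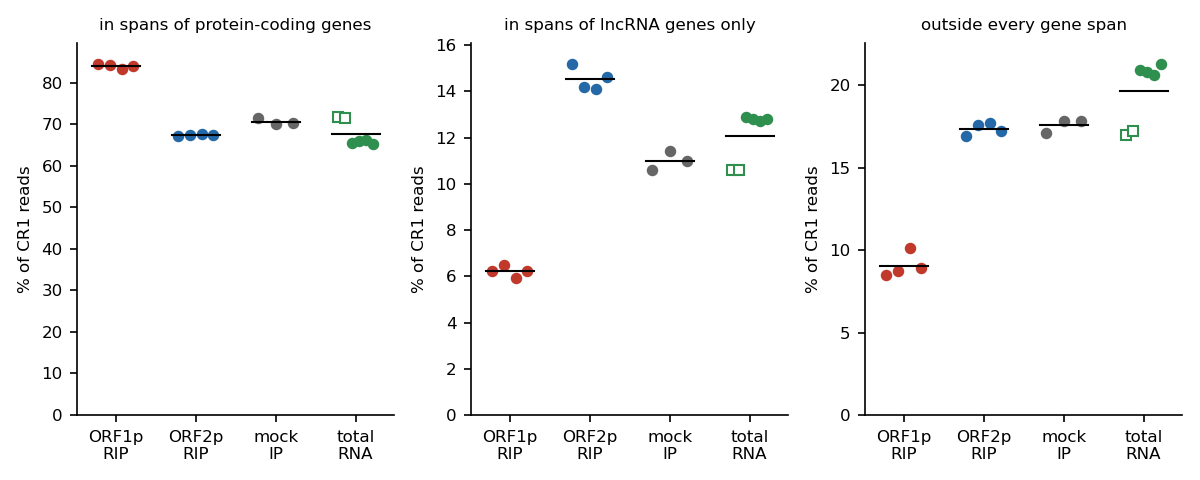
Percent of CR1 reads per library in spans of protein-coding genes, in spans of long noncoding genes only, and outside gene spans, with 1 point per library in each group. ORF1p RIP stands at 83.3 to 84.6% in protein-coding spans, above all other libraries.

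The loci called in ORF1p RIP showed the same split. Of the 875 CR1 loci higher than mock, 86.2% lay in protein-coding spans, of the 741 lower loci 46.2%, and of all 2521 tested 73.3%. Over loci of all families the figures were 72.1%, 40.2% and 64%, so the loci of all families showed a split in the same direction. By orientation, 54.4% of the higher and 49% of the lower loci with a known host strand lay in sense in ORF1p RIP over mock, 61% and 47.1% in ORF2p RIP over mock, and 47.8% and 65.1% in ORF2p RIP over total RNA. In mock over total RNA the figures were 29.6% and 86.7%, over 27 higher and 15 lower loci. Of all tested CR1 loci with a known host strand, 52.1% lay in sense. No share by orientation over loci of all families is given, and no test was made of these shares.

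Calls were also counted by host gene, for CR1 loci only. No such count over loci of all families is given, so whether these counts are particular to CR1 was not tested. Over all 195825 tested loci, 28.9% were higher and 31.1% lower than mock in ORF1p RIP, and neighbours of any family mostly shared their direction. Among 31 gene spans with at least 5 tested CR1 loci, 5 had every locus higher and 9 every locus lower in ORF1p RIP than in mock, 7 had some higher and none lower, 3 some lower and none higher, 2 held loci called in both directions, and 5 held no called locus. In ORF2p RIP over mock, 1 span had every locus higher and 0 every locus lower, 4 had some higher and none lower, 10 some lower and none higher, 3 both directions, and 13 no called locus. All 18 loci in PTCHD1-AS, a long antisense RNA gene, fell, with a summed level of 3.08 CPM in ORF1p RIP, 58.1 in ORF2p RIP and 57.9 in mock. All 13 in LINC03077 and all 12 in ITPR2, an inositol trisphosphate receptor gene, fell too (0.947 against 43.9 CPM and 1.66 against 31.9). All 12 in LPP rose, from 4.1 to 82.7 CPM, as did all 5 in TRPC6, a cation channel gene (0.75 to 17.9), and all 5 in MYH10, a nonmuscle myosin gene (2.29 to 20.3). CNOT4, a ubiquitin ligase gene of the CCR4-NOT complex, was the one span with every locus higher in both RIPs, at 23.7 CPM in ORF1p RIP and 26.5 in ORF2p RIP against 3.93 in mock.

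Neighbouring loci were counted in the same way. Of 626 pairs of tested CR1 loci within 5000 bases of each other, both were called in ORF1p RIP over mock in 361, and all 361 had the same direction, including 87 pairs of different subfamilies. Over all 195825 tested loci, both were called in 291199 of 519494 pairs (56.1%), and 99.2% of these had the same direction. In ORF2p RIP over mock both were called in 73 of the 626 CR1 pairs, beside 11.6% of pairs over all loci. In ORF2p RIP over ORF1p RIP both were called in 362, beside 59.7%. The direction was the same in 73 of 73 CR1 pairs (96.2% over all loci) and in 351 of 362 (99% over all loci). Neighbours of any family thus mostly shared their direction. Neighbouring loci are not independent measurements of each other.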

How the data were processed

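Total RNA or immunoprecipitated RNA was extracted with TRIzol and sequenced with rRNA depletion, per the labels' protocols. STAR and hg38 are named in the submitters' processing notes, and the counting program was not given in the sources used here. The deposited values are estimated counts per repeat copy, made by the authors, that need not be whole: 84.9 to 94.4% of CR1 values above 0 were whole within 1e-06. Of 60 value columns, 17 matched a sample's labels and 43 did not and were not used.

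Counts were summed by subfamily, rounded, filtered (filterByExpr, minimum count 10 for subfamilies and 20 for loci) and tested with edgeR 4.0.16 (TMM, quasi-likelihood test, limma 3.58.1, R 4.3.3) over the whole table and all 17 libraries, adjusted by Benjamini-Hochberg. A locus could pass the filter through a single group, and this selects for loci high in that group and low in the others. A call needed an adjusted p under 0.05 and 2-fold. Shares and ratios were compared by exact two-sided permutation tests. Alternatives were DESeq2 1.42.0, library totals, other filters, a replicate block, single total RNA series, no leading locus, and each library left out. The fits were tested on simulated data. Gene spans and start windows come from RefSeq, and reads within a span need not belong to that gene, since strand of counting is not stated. Counting error only is covered by the floors of 3 reads. Depth is given with the results.

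The text names L3, L3b, CR1_Mam, Plat_L3, every subfamily called between immunoprecipitations and leading loci with at least 50% of reads, then the 10 highest loci and up to 4 loci each way per comparison with the largest change, a level of 5 CPM in some group, and separate ranges. Other subfamilies and leading loci, LPP among the hosts included, were named after their values were seen. A few loci that this rule names are not reported here. Members and lists were chosen with earlier results of these data known. Replicate numbers were not taken as pairing, since the deviations of same-numbered samples correlated over 0.1 in 12 of 21 pairs only (-0.523 to 0.518). No 2 libraries agreed within sampling noise.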

Additional observations from a re-analysis of the deposited data

Results flagged for a closer look

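All 5 values that stood apart from their group came from ORF1p RIP replicate 3, among 60 groups of at least 4 libraries checked with Dixon's criterion, which by chance marks about 1 in 20. The mock IP, with 3 libraries, is below that size. ORF1p RIP replicate 3 had a CR1 share of repeat reads of 1.02%, below the 1.22 to 1.25% of the other ORF1p RIP libraries. Its CR1_Mam level was 695 CPM, above 553 to 562, and the CR1_Mam locus beyond NECTIN3 on chromosome 3 gave 234 CPM against 158 to 160. The L3b locus in SRGAP2C gave 36.1 CPM against 24.1 to 25.4, and the L3 locus in CASC9 gave 39.6 CPM against 20.5 to 23.7. This library also had the fewest CR1 loci with reads, 17.5% against 27.6 to 29.3% in the other ORF1p RIP libraries, and the lowest number of repeat reads, 7693841. Whether it differs from the others for a technical reason was not tested.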

How the results depend on the processing

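Of 120 alternative values of the counts, shares and ratios that did not leave out a library, 90 stayed close to the first value, 28 moved and 2 changed sign.

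On p alone, called subfamilies were 12 in ORF1p RIP over mock, 9 in ORF2p RIP over mock, 16 in ORF2p RIP over ORF1p RIP, 12 in ORF1p RIP over total RNA and 8 in ORF2p RIP over total RNA. Library totals gave 3 in ORF2p RIP over total RNA and 1 in mock over total RNA. The replicate block gave 2 in each RIP over total RNA, the numbers being shared without pairing the samples, and 1 called locus in mock over total RNA in place of 60. Without leading loci there were 0 in ORF2p RIP over mock and 0 in ORF2p RIP over total RNA. DESeq2 gave 1 in mock over total RNA. Series b alone gave 4 and 4 subfamilies for ORF1p RIP and ORF2p RIP over total RNA, 502 loci in ORF2p RIP over total RNA and 4 in mock over total RNA, while series bl gave 1 subfamily and 539 loci in mock over total RNA.

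A minimum count of 10 gave 2675, 2913 and 3113 called loci in ORF1p RIP over mock, ORF2p RIP over ORF1p RIP and ORF1p RIP over total RNA. A minimum of 100 gave 242, 124, 221, 245, 137 and 29 over the 6 comparisons, since fewer loci were tested.

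Signs changed as follows: the CR1 to L2 ratio of ORF2p RIP over ORF1p RIP to 0.0361 without leading loci, the share of mock over total RNA to 0.149 among LINE reads, L3b in ORF2p RIP over total RNA to -0.08 with library totals, and CR1_Mam there to 0.01 against series b. Without leading loci, ORF2p RIP over mock became 0.21 for CR1-8_Crp and -0.95 for X5B_LINE, and X7D_LINE became 0.17 in ORF2p RIP over ORF1p RIP and -0.06 in ORF1p RIP over total RNA. The sense share of ORF2p RIP over ORF1p RIP became 0.145 without ORF1p RIP replicate 3, in a range from -0.886 with another library left out. The protein-coding share of ORF2p RIP over total RNA became 0.526 and 0.481 without total RNA replicates 1 and 2, in a range from -0.738. The causes were not tested.

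Leaving out 1 library in turn gave 3 to 5, 2 to 2, 3 to 6, 1 to 1, 1 to 1 and 0 to 1 called subfamilies over the 6 comparisons. Called loci ranged from 1381 to 1716, 355 to 569, 1364 to 1787, 1435 to 1896, 656 to 891 and 6 to 247. Share differences ranged from 0.213 to 0.29, -0.119 to -0.0856, -0.392 to -0.315, 0.0549 to 0.132, -0.279 to -0.244 and -0.177 to -0.14. Ratio differences ranged from 0.342 to 0.38, 0.277 to 0.31, -0.0855 to -0.0522, 0.0796 to 0.16, 0.0145 to 0.0949 and -0.28 to -0.199. X7B_LINE slipped under 2-fold in ORF2p RIP over ORF1p RIP with DESeq2 size factors, the DESeq2 test, and the compared groups alone (-0.97, -0.97 and -0.99).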
